A study of Homo sapiens with 18 samples.

Results

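The RNA of K562 cells silenced with dCas9 was compared with the RNA of untreated K562 cells over all genes with enough counts. The comparison rests on 6 of the 18 samples of the study, 3 dCas9-silenced and 3 untreated RNA-seq libraries. They were chosen by their sample titles, and 13786 of the 55766 genes in the deposited count table could be tested. K562 is an established human leukaemia line with erythroid features, and all samples carried a B2M:tdTomato transgene, in which a red fluorescent protein is joined to B2M. The other 12 samples are 3 RNA libraries of cells silenced with TALE proteins and 9 MeDIP-seq libraries, 3 from each of the same 3 kinds of cells.

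The treated cells received 3 plasmids that code for different proteins, called ATR in the labels, of which 1 is named as D3A-based. For the dCas9 cells a plasmid coding for a guide RNA was added, and the B2M promoter is given as the target of the DNA methylation. Nothing in the labels says whether the untreated cells received a control plasmid, how long after treatment the cells were collected, whether they were sorted, or whether they were a clone. The labels number 3 replicates in each group and do not say whether these came from separate cultures. The p-values therefore measure the spread between these libraries, which may be technical.

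dCas9 is a Cas9 protein that binds DNA where a guide RNA directs it and does not cut. Fused to repressor domains, it can bring DNA methylation and repressive histone marks to a promoter, and such marks can be inherited through cell division. The product of B2M, beta-2 microglobulin, pairs with the heavy chains of MHC class I, which need it in order to reach the cell surface. Genes of MHC class I and of peptide loading respond to interferon, as do the guanylate-binding proteins, GTPases of the defence against pathogens inside cells. K562 cells are known for low MHC class I at their surface.

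Beside the transgene entry, 3 genes passed the test in this comparison, and the DNA just before the starts of B2M and TC2N is shown because the study placed methylation at such a site in B2M. Each sequence is the 250 bases before the start of the gene's main transcript in GRCh37, read 5′ to 3′ on the gene's own strand. Capitals mark CG dinucleotides, where human DNA is methylated. The windows are chr15:45003465-45003714 on the plus strand for B2M and chr14:92333881-92334130 on the minus strand for TC2N.
B2M: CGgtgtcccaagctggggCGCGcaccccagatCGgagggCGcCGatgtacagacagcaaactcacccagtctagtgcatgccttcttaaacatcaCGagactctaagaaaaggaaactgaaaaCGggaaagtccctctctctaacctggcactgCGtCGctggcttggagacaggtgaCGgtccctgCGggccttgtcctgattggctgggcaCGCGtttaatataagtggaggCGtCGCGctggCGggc
TC2N: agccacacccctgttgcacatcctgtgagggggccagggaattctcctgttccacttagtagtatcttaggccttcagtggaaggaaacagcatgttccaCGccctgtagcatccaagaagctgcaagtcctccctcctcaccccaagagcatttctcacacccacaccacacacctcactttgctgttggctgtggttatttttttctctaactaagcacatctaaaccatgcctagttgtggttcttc

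The B2M window holds 18 CG dinucleotides, while the TC2N window holds 1. Over 11951 such windows of tested genes the median was 21, 65.2% held 18 or more and 2.08% held at most 1. The motif GAAA, any 2 bases, GAAA, the core of the interferon-stimulated response element, was found in the B2M window as 2 overlapping matches, the first of which begins 144 bases before the start. It was searched on both strands and was present in 2.32% of all windows. The motif TTCNNNGAA of the gamma-activated sequence, also searched on both strands, was present in 5.30% of all windows and has no match in the B2M window. The TC2N window holds neither motif.

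The 6 libraries had between 8460076 and 11248517 counts. Untreated replicate 3 stood apart, with at least 1 count for 33110 genes where the other 8 RNA libraries had 21714 to 24963. Transcripts of the mitochondrial genome took 7.14% to 10.3% of counts in untreated and 6.14% to 14% in dCas9 libraries, and structural noncoding RNAs took 5.56% to 7.81% and 4.30% to 7.99%. The groups overlapped in both measures. The biological coefficient of variation over all 9 RNA libraries was 0.128. The 95% interval of the fold change lay within 2-fold in either direction for 11458 genes, 83.1% of those tested.

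Across the transcriptome, 4 of 13786 genes passed an adjusted p of 0.05 in edgeR's quasi-likelihood test, which is 0.0290% of genes tested. All 4 were lower in dCas9 cells and 0 were higher. They were B2M_tomato, B2M, GBP5 and TC2N. At an unadjusted p under 0.05, 390 genes (2.83%) were lower and 428 (3.10%) higher, 5.93% of genes in all. These shares are the background for the counts in each gene list below. The number in either direction was 1350 without dCas9 replicate 1 and 524 without untreated replicate 3, against 818 as reported. DESeq2, run as an alternative, called 27 genes, 17 lower and 10 higher, among them all 4. The median log2 fold change over all genes tested was −0.00.

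**Figure D1:**
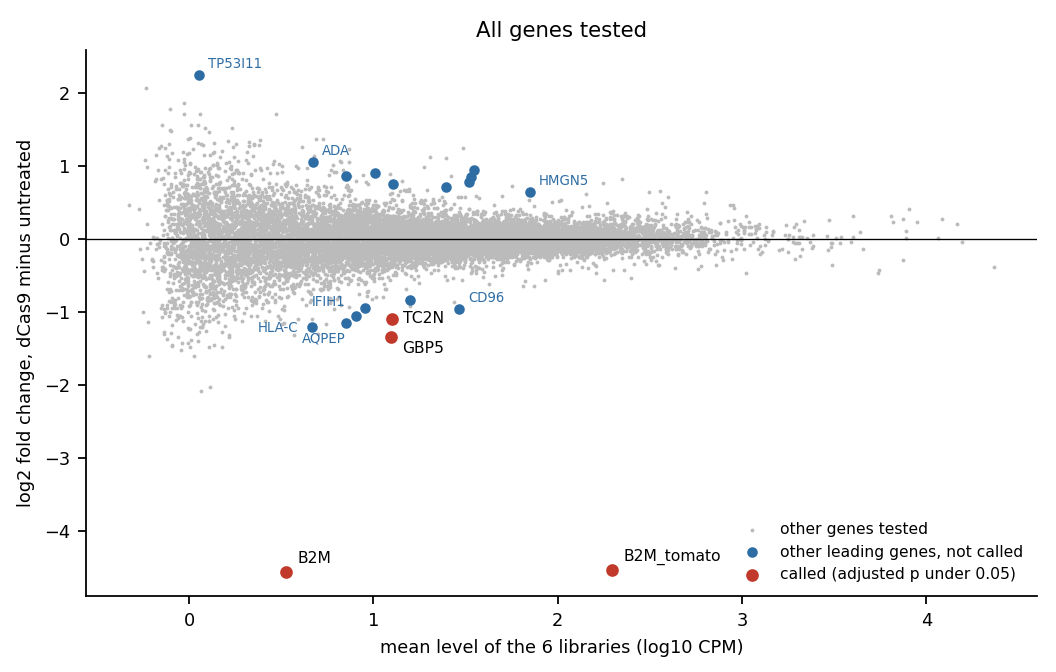
Log2 fold change of dCas9 against untreated cells (y axis) plotted against the mean level of the 6 libraries as log10 of CPM, library-scaled counts (x axis), with 1 point per gene for 13786 genes. Red points are the 4 genes that passed the test and blue points the other leading genes. B2M and B2M_tomato lie below −4, while GBP5 and TC2N lie between −1 and −2 near the edge of the cloud of other genes.

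The targeted gene checks the labels. B2M spans 45003556 to 45011049 of chromosome 15 (plus strand, GRCh37). Untreated replicates 1, 2 and 3 had 79, 48 and 54 B2M counts, and dCas9 replicates had 2, 3 and 3. In CPM, counts scaled to a common library size, the mean was 6.45 ± 0.487 (SD, n = 3) in untreated cells and 0.264 ± 0.0688 (SD, n = 3) in dCas9 cells. Every dCas9 library lay far below every untreated library. Pooled over libraries, the 8 dCas9 counts against 181 untreated counts put the dCas9 level at 4.03% of the untreated level, with an exact 95% counting interval from 1.71% to 8.10%. On the log2 scale B2M changed by −4.56 (SE 0.381, adjusted p 4.57e-06 in edgeR).

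The entry B2M_tomato, named for the transgene, carried most of the counts of the target. Its counts were 4109, 3115 and 3249 in the untreated libraries and 205, 154 and 140 in the dCas9 libraries. The mean level was 379 ± 18 CPM (SD, n = 3) in untreated cells and 16.3 ± 2.57 CPM (SD, n = 3) in dCas9 cells. The transcript fell to 4.34% of the untreated level, with an exact 95% counting interval from 3.96% to 4.75%, which covers counting error only. Its log2 fold change of −4.54 (SE 0.158, edgeR adjusted p 4.05e-12) was close to that of the B2M entry. How counts that match both entries were divided is not given in the sources used here, so the 2 entries may share reads and their separate levels are uncertain. In such bulk samples, fewer cells that transcribe B2M and less B2M RNA per cell cannot be told apart. Exact two-sided permutation tests gave 0.1 for each of the 4 called genes, the smallest p that 3 against 3 libraries allow.

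GBP5, an interferon-inducible guanylate-binding protein, was lower in every dCas9 library than in every untreated library. The gene spans 89721872 to 89738543 of chromosome 1 (minus strand). Its level was 13.1, 19.8 and 20.9 CPM in untreated replicates and 7.14, 6.73 and 7.04 CPM in dCas9 replicates. The untreated libraries differed among themselves, with the first closer to the dCas9 values, and the dCas9 libraries were nearly equal. GBP5 fell to 38.9% of its untreated mean, a log2 fold change of −1.35 (SE 0.222, edgeR adjusted p 0.0352). The call was lost without any single dCas9 replicate (adjusted p 0.0593, 0.255 and 0.175 for the first to the third), without untreated replicate 2 (0.233) and without untreated replicate 3 (0.435). It was also lost with upper-quartile factors (0.0667) and when every library had to hold 10 counts (0.0773).

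TC2N, which codes for a protein with tandem C2 domains, spans 92246090 to 92333880 of chromosome 14 (minus strand). Its level was 16.8, 15.8 and 18.9 CPM in untreated replicates and 9.17, 8.18 and 6.74 CPM in dCas9 replicates. The groups did not overlap, and the gap between them was larger than the range within either. TC2N fell to 46.8% of its untreated mean, a log2 fold change of −1.09 (SE 0.166, edgeR adjusted p 0.0179). Its call was lost without dCas9 replicate 2 or 3 (adjusted p 0.0889 and 0.175) and without untreated replicate 1, 2 or 3 (0.0906, 0.0573 and 0.248). Without untreated replicate 3, the library that stood apart, only B2M_tomato and B2M were called in the whole comparison, with log2 fold changes of −4.51 and −4.56, while GBP5 had −1.22 and TC2N −1.02.

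**Figure D2:**
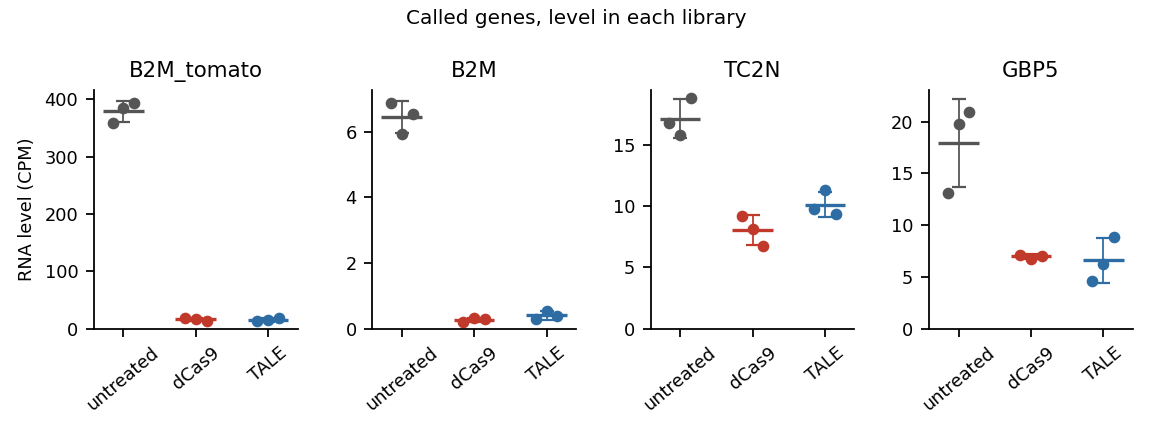
RNA level in CPM (y axis, from 0, a separate scale for each gene) of the 4 called genes in each untreated, dCas9 and TALE library (points), with the group mean (long line) and SD (error bar). The dCas9 points of B2M_tomato lie between 13.9 and 19 CPM against 359 to 393 CPM in untreated cells, and in all 4 genes the dCas9 and untreated points do not overlap.

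Methylated DNA at these starts was read from the MeDIP-seq counts of the same 3 kinds of cells, as a description with no test. MeDIP-seq counts DNA fragments captured with an antibody against methylated cytosine. A region at chr15:45003405-45003721, which contains the whole B2M window shown above, had 0 counts in each untreated library. It had 14, 13 and 16 counts in dCas9 replicates and 7, 10 and 9 in TALE replicates. The dCas9 mean was 4.50 ± 1.51 CPM (SD, n = 3), and the lowest dCas9 library was at 2.89 CPM. For the pooled untreated count of 0, a ceiling of 3 counts in 10311063 is 0.291 CPM. The dCas9 mean was 15.5-fold that ceiling, a ratio that leaves out the spread of the dCas9 libraries. GBP5 had 2 regions within 2 kb of its start. The nearer, at chr1:89738211-89738507 inside the gene, had 5, 8 and 7 counts (1.32, 2.89 and 1.87 CPM) in untreated and 4, 4 and 2 counts (1.35, 0.890 and 0.735 CPM) in dCas9 libraries. The other, at chr1:89739706-89739924 upstream of the start, had 2.11, 2.17 and 1.33 CPM in untreated and 1.02, 1.56 and 0.735 CPM in dCas9 libraries. The groups overlapped in CPM at both GBP5 regions. TC2N had 0 regions of the MeDIP table within 2 kb of its start.

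The genes next in rank, the 10 lower and 10 higher genes of smallest p whose groups do not overlap, were examined by function. Groups did not overlap in 823 genes lower in dCas9 cells (5.97%) and in 772 genes higher (5.60%), so separation of the 6 values alone was common. Besides the 4 called genes, the lower genes were CLTCL1, CD96, AQPEP, TTLL7, HLA-C and IFIH1, with edgeR adjusted p from 0.0805 to 0.200. The higher genes were LINC00665, TSSC2, TP53I11, ZNF680, SNORA76, RP11-570P14.1, HMGN5, RBM47, ADA and PALM, with edgeR adjusted p from 0.139 to 0.208. None of these 16 passed the adjusted threshold in edgeR, while DESeq2 called all 6 of the lower genes and, of the higher genes, LINC00665, SNORA76, TSSC2, ZNF680, RP11-570P14.1, HMGN5 and PALM.

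CLTCL1, a clathrin heavy chain, was at 17.8, 20.3 and 22.6 CPM in untreated and 11.7, 10.0 and 12.1 CPM in dCas9 libraries. CD96, a receptor of T and natural killer cells that binds the poliovirus receptor, was at 34.5, 39.4 and 42.1 CPM against 24.0, 16.8 and 18.6 CPM. The 3 dCas9 values of both genes lay under the untreated ones, which the choice of these genes requires. Log2 fold changes were −0.84 (SE 0.15) for CLTCL1 and −0.96 (SE 0.178) for CD96. CD96 was called without dCas9 replicate 1 (adjusted p 0.0378). AQPEP, now named LVRN, codes for the aminopeptidase laeverin and was at 8.64, 9.51 and 11.4 CPM against 3.06, 4.97 and 5.25 CPM. TTLL7, an enzyme that adds glutamate chains to tubulin, was at 9.25, 11.6 and 12 CPM against 5.47, 3.93 and 6.25 CPM. Their log2 fold changes were −1.15 (SE 0.228) for AQPEP and −1.06 (SE 0.219) for TTLL7.

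Among the higher genes, TP53I11, which codes for p53-inducible protein 11, had the largest log2 fold change, 2.25 (SE 0.460). It was at 0.611, 0.247 and 0.242 CPM in untreated and 1.76, 2.07 and 1.88 CPM in dCas9 libraries, so it rests on few counts. ADA, the enzyme adenosine deaminase, was at 3.14, 3.34 and 2.66 CPM against 5.19, 6.32 and 7.63 CPM, a log2 fold change of 1.06 (SE 0.240). PALM, a membrane-bound protein called paralemmin, was at 7.42, 6.92 and 6.90 CPM against 11.2, 13.1 and 15.7 CPM. In all 3 genes the dCas9 values lay above the untreated ones, which the choice of these genes requires. RBM47, an RNA-binding protein, had 0.86 (SE 0.195), and HMGN5, which binds nucleosomes, had 0.65 (SE 0.145). The long noncoding RNA LINC00665 had 0.85 (SE 0.168) and the zinc-finger gene ZNF680 had 0.75 (SE 0.155). TSSC2 had 0.71 (SE 0.140). The small nucleolar RNA SNORA76 had 0.94 (SE 0.194) and the clone-named RP11-570P14.1 had 0.78 (SE 0.175). Over all alternatives tried, these 10 log2 fold changes stayed between 0.48 and 2.90.

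**Figure D3:**
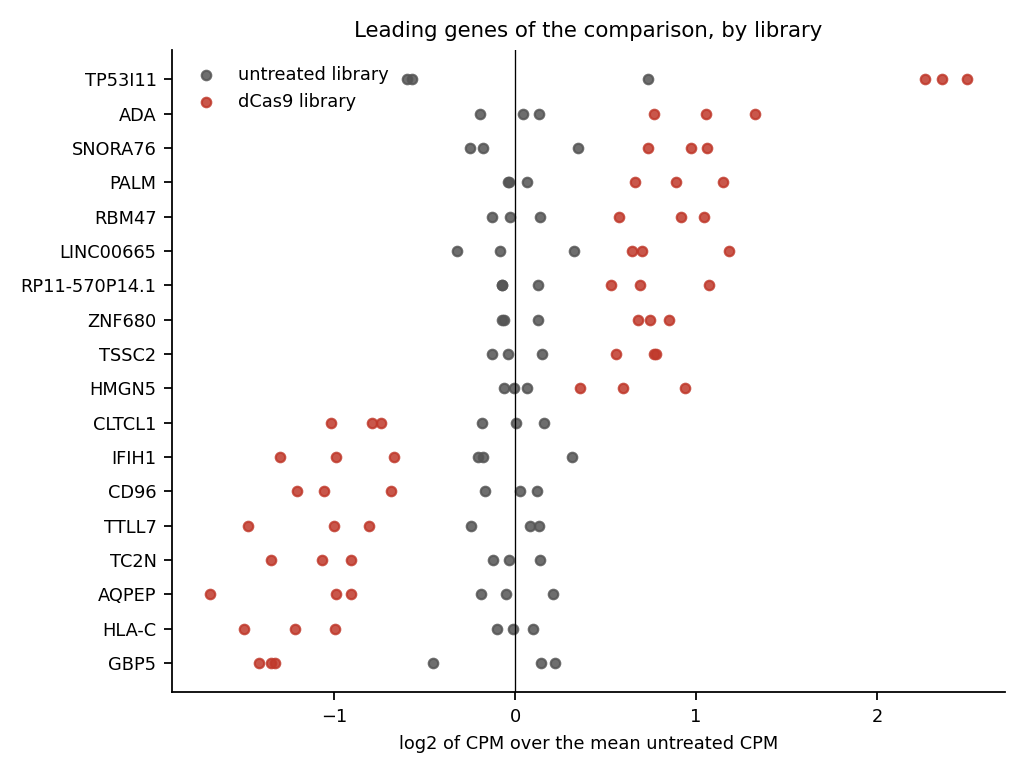
The 18 leading genes other than B2M and B2M_tomato (y axis), with the log2 ratio of each library's CPM to the mean untreated CPM (x axis). Grey points are untreated and red points dCas9 libraries. In every gene the 3 red points lie on 1 side of the 3 grey points, which the choice of these genes requires.

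Genes of antigen presentation were examined next, because B2M is a subunit of MHC class I. Of 21 listed genes, 15 could be tested, 0 were called, and 4 were lower (26.7%, against 2.83% of all genes) and 0 higher (3.10% of all genes) at an unadjusted p under 0.05. Leaving out 1 library gave 2 to 5 lower. The median of the 15 was −0.09, with 11 negative and 4 positive values, against −0.00 over all genes. HLA-C, a class I heavy chain, was at 6.02, 6.92 and 6.41 CPM in untreated and 3.24, 2.28 and 2.78 CPM in dCas9 libraries. HLA-C had a log2 fold change of −1.21 (SE 0.256, adjusted p 0.179 in edgeR), and reads of HLA genes that resemble each other may be split between them. PSMB8, a subunit of the immunoproteasome, which cuts proteins into the peptides that class I presents, was at 4.45, 4.45 and 3.87 CPM against 2.32, 1.66 and 1.98 CPM. The groups of HLA-C and PSMB8 did not overlap at these low levels, which the choice of HLA-C as a leading gene requires.

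PSMB9, another immunoproteasome subunit, was at 6.20, 6.92 and 9.68 CPM in untreated and 5.00, 3.31 and 4.36 CPM in dCas9 libraries. TAP1, a subunit of the transporter that carries peptides into the endoplasmic reticulum, was at 6.28, 7.66 and 7.38 CPM against 4.91, 4.87 and 5.65 CPM. Log2 fold changes were −1.09 (SE 0.285) for PSMB8, −0.83 (SE 0.287) for PSMB9 and −0.46 (SE 0.209) for TAP1, with edgeR adjusted p of 0.299, 0.595 and 0.827. PSMB8, PSMB9, TAP1 and TAP2 lie next to each other on chromosome 6, between 32789610 and 32827628. TAP2, the partner of TAP1, was at 40.8 ± 0.446 CPM in untreated and 34.1 ± 1.69 CPM in dCas9 libraries (SD, n = 3 each), a log2 fold change of −0.26 (SE 0.131). HLA-B had −0.82 (SE 0.416) at a mean of 2.0 CPM in untreated cells, and its groups overlapped.

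The chaperones of the same pathway gave values near 0. CALR (calreticulin) had 0.04, CANX (calnexin) −0.01, TAPBP (tapasin) 0.05 and PDIA3 0.15. The heavy chain HLA-E, a ligand of an inhibitory receptor of natural killer cells, was at 17.6, 21 and 22.6 CPM in untreated and 19.5, 17.0 and 20.8 CPM in dCas9 libraries, with overlapping groups. HLA-F, HLA-G, TAPBPL and the regulators NLRC5 and CIITA had too few counts to be tested.

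Of the 7 listed guanylate-binding proteins, 3 could be tested and 1, GBP5, was called, against 0.0290% of all genes. At an unadjusted p under 0.05, 2 were lower (66.7%, against 2.83% of all genes) and 0 higher. GBP4 was at 11.8, 9.14 and 14.2 CPM in untreated and 6.95, 5.59 and 7.93 CPM in dCas9 libraries, a log2 fold change of −0.78 (SE 0.215, edgeR adjusted p 0.376). GBP2 was at 1.57, 3.95 and 4.36 CPM against 2.41, 2.59 and 2.08 CPM, so its groups overlapped. The summed level of the 3 genes was 26.4 to 39.4 CPM in untreated, 14.9 to 17.1 CPM in dCas9 and 12.2 to 18.7 CPM in TALE libraries. This sum includes the called GBP5, with a mean of 17.9 CPM in untreated and 6.97 CPM in dCas9 cells. GBP1, GBP3, GBP6 and GBP7 had too few counts. Without untreated replicate 3, the number lower at an unadjusted p under 0.05 was 2 for these proteins and 2 for the class I list. In that setting 524 of all 14055 genes tested were under 0.05 in either direction, against 818 of 13786 in the main fit.

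Interferon receptors and their signalling chain gave 0 called genes among 15 tested, with 2 lower (13.3%, against 2.83% of all genes) and 0 higher (3.10% of all genes) at an unadjusted p under 0.05 and a median of −0.08. The number lower was 0 to 2 when 1 library was left out. IFNGR1, the ligand-binding chain of the interferon-gamma receptor, was at 40.7, 48.8 and 48.5 CPM in untreated and 43.3, 28.8 and 34.7 CPM in dCas9 libraries, with overlapping groups. IRF7, a transcription factor of the type I interferon response, was at 2.27, 3.09 and 2.66 CPM against 1.76, 1.45 and 0.694 CPM. Their log2 fold changes were −0.37 (SE 0.170) for IFNGR1 and −1.01 (SE 0.397) for IRF7. Without untreated replicate 2, neither had an unadjusted p under 0.05. JAK1, a kinase that both interferon types use, had −0.06 (95% interval −0.30 to 0.18). IRF1 had −0.33 (SE 0.228) and STAT2 −0.27 (SE 0.151).

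Of 40 interferon-stimulated genes, 21 could be tested, with 3 lower (14.3%, against 2.83% of all genes) and 0 higher (3.10% of all genes) at an unadjusted p under 0.05 and a median of −0.02. IFIH1, a sensor of double-stranded RNA also called MDA5, was at 10.6, 10.4 and 14.9 CPM in untreated and 6.02, 4.87 and 7.53 CPM in dCas9 libraries. SAMD9, a factor that restricts poxviruses, was at 47.6, 42.9 and 48.2 CPM against 35.8, 34.3 and 26.5 CPM. Both had groups that did not overlap, which the choice of IFIH1 as a leading gene requires. Log2 fold changes were −0.95 (SE 0.205) for IFIH1 and −0.52 (SE 0.145) for SAMD9. IFITM1, a membrane protein that limits virus entry, was at 246, 248 and 295 CPM against 256, 154 and 179 CPM, with dCas9 replicate 1 inside the untreated range. Widely used members of the list gave other values. ISG15, a ubiquitin-like protein, had −0.18 (SE 0.178) and IFI16, a DNA sensor, had 0.57 (SE 0.384). The other 19 genes, among them MX1, OAS1, IFIT1 and IFI44L, had too few counts to be tested.

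A separate list of genes that sense DNA and RNA in the cytosol does not hold the sensors IFIH1 and IFI16 given above. It had 0 of 14 tested genes at an unadjusted p under 0.05 in either direction. Their log2 fold changes ran from −0.22 to 0.24, with MAVS, the adaptor of RNA sensing, at 0.03 and TMEM173 (STING), the adaptor of DNA sensing, at 0.19. Among ligands that natural killer cells recognise, 10 of 15 were tested. PVRL2, now NECTIN2, was lower at an unadjusted p of 0.0236 in edgeR, with a log2 fold change of −0.35 and overlapping groups. At an unadjusted p under 0.05, 1 of the 10 was lower (10.0%, against 2.83% of all genes) and 0 were higher. MICA had 0.14, MICB −0.12 and ULBP1 0.30.

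**Figure D4:**
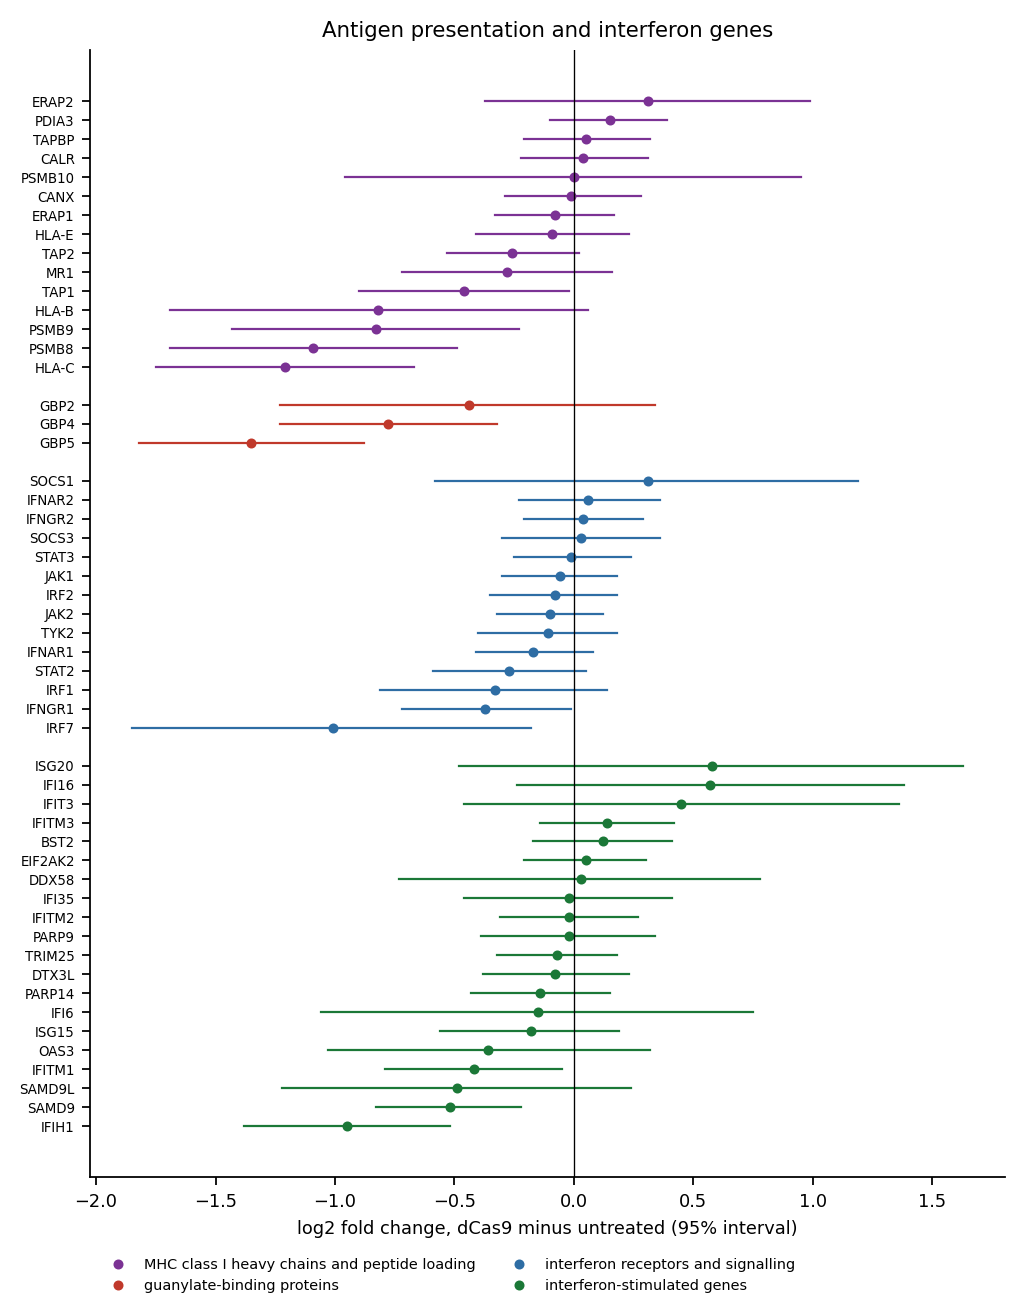
Log2 fold change of dCas9 against untreated cells (x axis, point) with its 95% interval (line) for the tested members of 4 gene lists (y axis, coloured by list, with 1 tested gene not shown). The intervals of HLA-C, PSMB8, PSMB9, TAP1, GBP5, GBP4, IRF7, IFNGR1, IFIH1, SAMD9 and IFITM1 lie below 0, and 0 intervals lie above 0.

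Enzymes that write, read or remove DNA methylation were examined because the silencing proteins carry such a function. Of 14 tested genes, 0 were called. At an unadjusted p under 0.05, 1 was higher (7.14%, against 3.10% of all genes) and 1 lower (7.14%, against 2.83%). The lower gene was TDG, a glycosylase of active demethylation, at 100, 102 and 94.6 CPM in untreated and 94.0, 82.1 and 75.1 CPM in dCas9 libraries. The methyltransferases DNMT1, DNMT3A and DNMT3B had 0.15, 0.18 and 0.15, each with overlapping groups. The demethylating dioxygenases TET1, TET2 and TET3 had 0.04, −0.02 and −0.10. DNMT3L had too few counts in these libraries.

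Partners of KRAB repressors and of H3K9 methylation, a mark of heterochromatin, gave 0 of 21 tested genes at an unadjusted p under 0.05. Of these, 18 had a positive and 3 a negative value, against 6789 and 6997 of all genes. The median was 0.07 and the range −0.16 to 0.26. The list's median deviation from the untreated mean was −0.04, 0.14 and 0.09 in dCas9 and 0.04, 0.03 and −0.05 in untreated libraries. In TALE cells the median log2 fold change of the list was 0.11. TRIM28, the corepressor that KRAB domains recruit, was at 195, 203 and 197 CPM in untreated and 183, 136 and 213 CPM in dCas9 libraries. SETDB1, the H3K9 methyltransferase that TRIM28 recruits, had 0.08 (SE 0.108). Of 24 Polycomb genes tested, EZH2, the H3K27 methyltransferase, was higher at 0.29 (SE 0.131) and PHC3, a subunit of the PRC1 complex, at 0.34 (SE 0.155). Their unadjusted p were 0.0425 and 0.0406 in edgeR. At an unadjusted p under 0.05, 8.33% of the Polycomb list was higher (3.10% of all genes) and 0 were lower. The number higher was 0 with the replicate block and without dCas9 replicate 2, untreated replicate 2 or untreated replicate 3.

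Neighbours of B2M on chromosome 15 were listed for their position near the target. Of 23 neighbours, 10 could be tested, and 0 had an unadjusted p under 0.05. Their log2 fold changes ran from −0.15 for SPG11 to 0.40 for TRIM69, with a lowest edgeR adjusted p of 0.904. TRIM69, a ubiquitin ligase gene at 45021186 to 45060027 on the side toward which B2M is transcribed, was at 6.02, 7.04 and 6.53 CPM in untreated and 7.69, 10.6 and 7.53 CPM in dCas9 libraries. SPG11 was at 97.6, 98.7 and 106 CPM against 94.2, 88.3 and 90.0 CPM. Of the listed neighbours, 12 had too few counts and 1 was not found under its name, so nothing is known of them here.

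The identity of the cells was checked on markers. All 16 markers of K562 and erythroid cells were tested, with a summed level of 9062 to 9686 CPM in untreated and 7463 to 10833 CPM in dCas9 libraries. The erythroid regulators GATA1, KLF1 and TAL1 had −0.13, −0.09 and 0.08. Of 13 lymphoid and monocyte markers, 4 were tested, and CD3E, MS4A1, CD79A, CD14, ITGAM, CD4, CD8A and NKG7 were among those with too few counts. PTPRC, the leukocyte phosphatase CD45, was at 283, 287 and 316 CPM against 221, 181 and 211 CPM, a log2 fold change of −0.53 (SE 0.123, edgeR adjusted p 0.208). DESeq2 called PTPRC at an adjusted p of 0.0144. The other tested markers, CD3D, CD3G and LYZ, had 0.15, 0.34 and 0.06 with overlapping groups, and the median of the 4 was 0.11. The summed level of the 4 markers, most of it PTPRC, was 329 to 365 CPM in untreated, 237 to 276 CPM in dCas9 and 246 to 300 CPM in TALE libraries. Of 11 fibroblast and epithelial markers 4 were tested, and VIM, an intermediate filament that K562 cells also express, had 0.44 (SE 0.144). EPCAM, COL1A1 and COL1A2 had 0.02, −0.15 and −0.35 with overlapping groups, and the median of these 4 was −0.07.

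Globins and the genes that serve them were described as the main differentiated programme of this line. At an unadjusted p under 0.05, 1 of 9 tested globins was higher, HBA1 (11.1%, against 3.10% of all genes). HBB was the 1 lower (11.1%, against 2.83%). The number lower was 3 without dCas9 replicate 1 and 0 without dCas9 replicate 2. Over all genes, the count in either direction was 1350 without dCas9 replicate 1, against 818 in the main fit. HBA1, an alpha globin, was at 204, 272 and 250 CPM in untreated and 330, 455 and 354 CPM in dCas9 libraries, a log2 fold change of 0.65 (SE 0.166, edgeR adjusted p 0.262). HBA2, the near-identical copy, had −0.15, and reads could be split between them. HBB, the adult beta globin, was at 2.27, 2.84 and 2.90 CPM against 1.67, 0.518 and 1.39 CPM. The foetal globins HBG1 and HBG2, also near-identical copies, had −0.07 and −0.04, and the embryonic globins HBE1 and HBZ had 0.00 and 0.32.

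Of 14 heme synthesis genes, 0 had an unadjusted p under 0.05, within a range of −0.15 to 0.22. Among 15 genes of iron handling, the ferritin heavy chain FTH1 had 0.42 (SE 0.197) with overlapping groups and the iron reductase STEAP3 had −0.32 (SE 0.147). At an unadjusted p under 0.05 these were the 1 higher (6.67%, against 3.10% of all genes) and 1 lower (6.67%, against 2.83%). Among 18 genes of the red cell membrane, GYPC (glycophorin C) was at 269, 260 and 257 CPM in untreated and 310, 385 and 350 CPM in dCas9 libraries, a log2 fold change of 0.41 (SE 0.136, edgeR adjusted p 0.557). Of 18 erythroid transcription factors and 6 tested genes of the megakaryocyte lineage, 0 had an unadjusted p under 0.05.

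Growth and survival genes gave narrow ranges. BCR-ABL is the fusion kinase that drives K562 cells, and 23 genes of its signalling ran from −0.21 to 0.18, with 0 at an unadjusted p under 0.05. Of 44 cell cycle genes, CCND1 (cyclin D1) alone was under 0.05 (2.27%, against 5.93% of all genes in either direction). It was at 21.6, 21.9 and 26.9 CPM in untreated and 17.5, 17.1 and 20.9 CPM in dCas9 libraries. The 44 values ran from −0.34 to 0.29, with 27 negative and a median of −0.03. The proliferation marker MKI67 was at 542, 630 and 574 CPM against 490, 922 and 724 CPM, so the dCas9 libraries differed more among themselves than from the untreated ones. Of 14 tested BCL2 family genes, 0 were under 0.05. Of 16 tested p53 targets, TP53INP1, a stress-induced p53 target, was lower at −0.54 (SE 0.236).

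Metabolic genes were as close. PFKM, the muscle form of phosphofructokinase, was at 7.68, 7.17 and 7.50 CPM in untreated and 11.6, 8.80 and 11.9 CPM in dCas9 libraries. SLC2A1, the glucose transporter GLUT1, was at 178, 203 and 190 CPM against 168, 159 and 159 CPM. These 2 of 26 tested genes of glycolysis and the hypoxia response had an unadjusted p under 0.05 (7.69%, against 5.93% of all genes). Their log2 fold changes were 0.53 (SE 0.182) for PFKM and −0.23 (SE 0.109) for SLC2A1. Of 27 tested genes of cholesterol and fatty acid synthesis, 25 had a negative value, against 6997 of all 13786 genes. Their median was −0.12, and −0.17 in TALE cells, while 0 passed an unadjusted p of 0.05 in dCas9 cells. SQLE (squalene epoxidase) had −0.21 (SE 0.13). The summed level of the 27 genes was 6800 to 6936 CPM in untreated and 6157 to 6600 CPM in dCas9 libraries. The median was −0.05 without dCas9 replicate 2.

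Plasmids were delivered to the dCas9 cells, and stress programmes were therefore listed. Of 17 heat shock genes, HSPB1, a small heat shock protein, was at 393, 406 and 398 CPM in untreated and 483, 466 and 490 CPM in dCas9 libraries. Its replicates were close in both groups, with a log2 fold change of 0.27 (SE 0.122, adjusted p 0.827 in edgeR). Of 25 genes of the integrated stress and unfolded protein responses, PSAT1, an enzyme of serine synthesis, had −0.31 (SE 0.120) and EDEM1, which sends misfolded proteins to degradation, had −0.27 (SE 0.113). The stress transcription factors ATF4 and DDIT3 had 0.08 and 0.10. Of 18 tested immediate early genes, FOSL1 had 0.26 (SE 0.112) and JUNB 0.40 (SE 0.179), both subunits of the AP-1 factor. They were the 2 higher at an unadjusted p under 0.05 (11.1%, against 3.10% of all genes), and 0 were lower. The number higher was 4 without dCas9 replicate 1 and 0 without dCas9 replicate 3, untreated replicate 1 or untreated replicate 2. Over all genes, the count in either direction was 1350 without dCas9 replicate 1, against 818 in the main fit.

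Transcripts of the mitochondrial genome varied between libraries. Their summed level was 70079, 107424 and 105421 CPM in untreated and 62553, 149007 and 107981 CPM in dCas9 libraries. Replicate 1 was the lowest in both groups, and the groups overlapped. Of 15 transcripts, MT-ND6, a subunit of respiratory complex I, was at 345, 577 and 569 CPM against 387, 990 and 961 CPM, a log2 fold change of 0.65 (SE 0.286, edgeR adjusted p 0.799). The median of the 15 was 0.24, and it was 0.54 without dCas9 replicate 1 and −0.19 without dCas9 replicate 2. Of 36 nuclear genes of the respiratory chain, 0 had an unadjusted p under 0.05, and their median was −0.04. Without dCas9 replicate 1, 5 of them were lower at that threshold and the median was −0.14. In that setting 1350 of all 14057 genes tested were under 0.05 in either direction, against 818 of 13786 in the main fit.

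Of 76 tested cytosolic ribosomal proteins, RPL37A had 0.46 (SE 0.173) and RPS29 had 0.66 (SE 0.303), the latter with overlapping groups, and the median was −0.05. Without dCas9 replicate 1, 12 were lower at an unadjusted p under 0.05 and the median was −0.16. In that setting 1350 of all 14057 genes tested were under 0.05 in either direction, against 818 of 13786 in the main fit. With no filter on low counts 5 were lower, and 1665 of all 41469 genes were under 0.05 in either direction. Of 26 replication-dependent histone genes, whose copies resemble each other, HIST2H2AA3 and HIST1H1D were higher at an unadjusted p under 0.05. That is 7.69% of the list, against 3.10% of all genes. Without dCas9 replicate 1, the setting with 1350 of all 14057 genes under 0.05, 0 were higher and 3 lower. Of 11 tested structural noncoding RNAs, 1 was higher (9.09%, against 3.10% of all genes) and 0 lower at an unadjusted p under 0.05. Their median was −0.29, which was −0.02 without dCas9 replicate 2. In the setting without dCas9 replicate 1, with 1350 of all 14057 genes under 0.05, 4 of them were lower and 3 higher. RN7SL1, the RNA of the signal recognition particle, was at 20756, 28028 and 29754 CPM in untreated and 30543, 8914 and 20763 CPM in dCas9 libraries, so a single dCas9 library held the low value. RNU4-1, a spliceosomal RNA, had 1.14 (SE 0.396) with overlapping groups.

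Genes that DNA methylation can keep silent or mark by parent of origin were examined as further lists, and HOX genes were listed beside them. Of 28 cancer-testis genes, 16 were tested, with 3 lower (18.8%, against 2.83% of all genes) and 0 higher at an unadjusted p under 0.05. Leaving out 1 library gave 1 to 2 lower. They were MAGEA1 at −0.51 (SE 0.182), PAGE5 at −0.50 (SE 0.172) and GAGE1 at −0.33 (SE 0.15), all from X-linked families whose copies share sequence. MAGEA1 was at 22.1, 20.3 and 18.8 CPM in untreated and 17.2, 10.6 and 15.1 CPM in dCas9 libraries. Of 23 imprinted genes, 14 were tested. MEST, expressed from the paternal allele, was at 5.32, 3.21 and 4.24 CPM against 1.58, 2.38 and 2.88 CPM, a log2 fold change of −0.92 (SE 0.295, edgeR adjusted p 0.530). H19, a noncoding RNA expressed from the maternal allele, had 0.37 (SE 0.165) with overlapping groups. Of 11 tested HOX genes, 0 had an unadjusted p under 0.05.

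**Figure D5:**
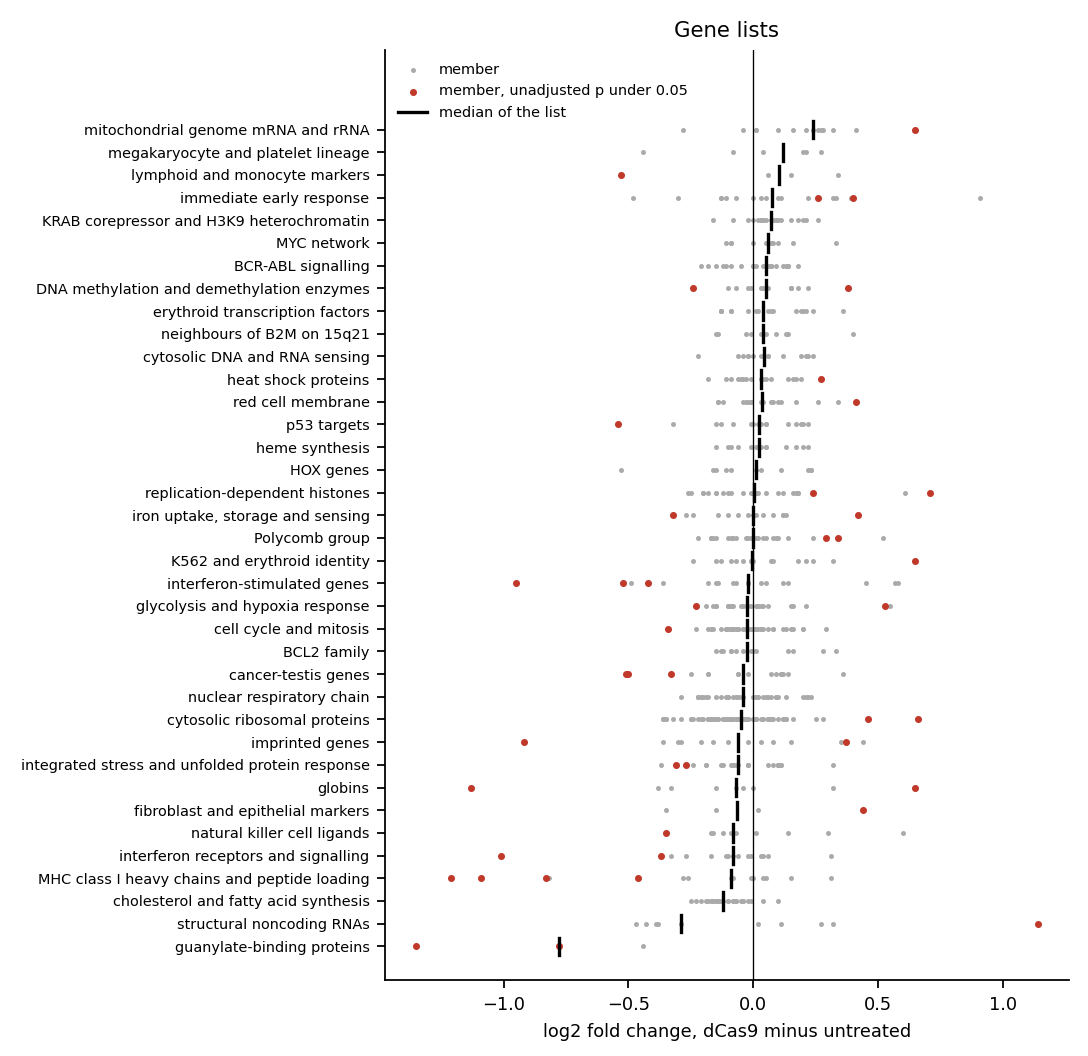
Log2 fold change of dCas9 against untreated cells (x axis) for the tested members of 37 gene lists (y axis, ordered by median). Red points are members with an unadjusted p under 0.05 and black bars the list medians. The median of the guanylate-binding proteins, −0.78 over 3 genes, lies farthest from 0, and most other medians lie within 0.1 of 0.

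The TALE-silenced cells were set beside the dCas9 cells, which share their untreated libraries, so their values are given side by side and the direct difference was tested. Against untreated cells, 592 genes (4.29%) were lower and 394 (2.86%) higher in TALE cells at an unadjusted p under 0.05. Between dCas9 and TALE, 0 genes were called in edgeR (0% of 13786), and 880 (6.38%) had an unadjusted p under 0.05. Without dCas9 replicate 1 the number called between dCas9 and TALE was 21, against the 0 above. For B2M_tomato the mean was 16.3 ± 2.57 CPM in dCas9 and 15.1 ± 2.84 CPM in TALE libraries (SD, n = 3 each), a difference of 0.11 (SE 0.155). For B2M the means were 0.264 and 0.401 CPM, a difference of −0.62 (SE 0.563) that rests on 8 and 14 counts. GBP5 was at 4.61, 6.24 and 8.89 CPM in TALE libraries, and the difference was 0.08 (SE 0.235). TC2N was at 9.80, 11.3 and 9.35 CPM in TALE libraries, all above the 3 dCas9 values, and the difference was −0.34 (SE 0.169, edgeR adjusted p 0.794).

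Other named genes with an unadjusted p under 0.05 in this difference were PALM, SAMD9, FTH1 and MT-ND6, among others. PALM was at 13.3 ± 2.23 CPM in dCas9 and 8.44 ± 2.37 CPM in TALE libraries (SD, n = 3 each), with an adjusted p of 0.580 in edgeR. SAMD9 was at 32.2 ± 4.99 and 46.3 ± 8.70 CPM (SD, n = 3 each), with 46.2 ± 2.89 CPM in untreated cells and an adjusted p of 0.511. FTH1 was at 1035 ± 225 and 629 ± 143 CPM (SD, n = 3 each), also at 0.511. MT-ND6 differed by 1.42 (SE 0.291, edgeR adjusted p 0.511), with a summed mitochondrial level of 37486 to 64062 CPM in TALE libraries. The part of mitochondrial RNA content in these differences was not tested.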

How the data were processed

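Counts per gene were deposited by the authors as a single table of whole numbers. Reads had been aligned to hg19 with STAR 2.3.0, per the submitters' processing notes; the counting program and its use of strand are not given in the sources used here. The libraries were made from RNA amplified with a kit for degraded samples, per the labels' protocols. The MeDIP-seq table, also deposited by the authors, holds counts per region.

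Genes were kept by filterByExpr (minimum count 10), scaled by TMM and tested with edgeR 4.0.16 (R 4.3.3) by quasi-likelihood in 1 model over 9 RNA libraries, with Benjamini-Hochberg adjustment over all 13786 tested genes. CPM are counts scaled to the TMM-adjusted library size. The script was tested on simulated data. DESeq2 1.42.0, other factors, filters, a replicate block and leaving out each library were alternatives. Totals of 8460076 to 11248517 counts gave a median SE of 0.373 below a mean of 5 CPM and 0.126 above 50. Gene positions come from GENCODE on GRCh37 and sequences from the GRCh37 genome.

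Named genes were the target entries, all called genes, and the 10 lower and 10 higher genes of smallest p with groups apart. To these were added the 2 members of smallest p and the most abundant tested member of each of 37 lists. Other list members are named for their known roles and were chosen after their values were seen. The members and lists were chosen with earlier results of these data known. A few genes and a sequence are not reported here.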

Additional observations from a re-analysis of the deposited data

How the results depend on the processing

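The 4 calls became 27 with DESeq2, 8 when the 6 libraries were fitted alone, 89 with no filter on low counts, and 2 when every library had to hold 10 counts, a filter that leaves B2M untested. With the replicate block 2 genes were called, B2M_tomato and B2M. GBP5 then had an adjusted p of 0.0589 and TC2N of 0.10 in edgeR. The replicate numbers share no stated origin, so no pairing was assumed. Deviations of same-numbered libraries correlated across genes at 0.101, 0.0178 and 0.0810, and those of differently numbered libraries at −0.124 to 0.0475. The values for numbers 1 and 3 were thus the highest, while dCas9 replicate 2 correlated slightly better with untreated replicate 1 (0.0186). Whether the numbers pair the libraries was not tested. Leaving out 1 library gave 2 to 8 calls, with 8 without dCas9 replicate 1, 3 without untreated replicate 1 and 2 without any of the others. Other scaling factors gave 4 (RLE) and 3 (upper quartile). Between dCas9 and TALE the count was 77 with no filter and ranged from 0 to 21 when 1 library was left out. No filter moved the median over all genes to −0.13, and to 0.01 over the genes otherwise tested. No called value changed direction under these settings. Of the values of the 119 named genes under these settings, 1492 kept their side of the threshold, 37 passed it newly and 14 no longer passed. Of the list counts at an unadjusted p under 0.05, 804 stayed within 1.5 times of the reported count and 158 moved farther. Depth limits genes under 5 CPM, and B2M itself rests on 2 to 3 counts in each dCas9 library.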

Other observations

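Gene classes outside the lists were looked at after their values were seen, and they are given as counts with no test. Of 602 processed pseudogenes, copies of mRNAs that share sequence with their parent genes, 59 (9.80%) were higher and 13 (2.16%) lower in dCas9 than in untreated cells at an unadjusted p under 0.05, around a median of 0.07. Over all 13786 tested genes these shares were 3.10% higher and 2.83% lower. The pseudogenes' median deviation from the untreated mean was 0.12, 0.07 and 0.01 in the 3 dCas9 libraries. Against the same untreated libraries, TALE cells had 35 pseudogenes higher and 18 lower, around a median of 0.07. Over all genes the TALE shares were 2.86% higher and 4.29% lower. Of 437 genes with names of zinc-finger proteins, most of which bind DNA, 34 (7.78%) were lower and 16 (3.66%) higher, around a median of −0.05. Of 315 long noncoding RNAs, 14 (4.44%) were lower and 7 (2.22%) higher. In TALE cells the zinc-finger genes had 16 lower and 11 higher, and the long noncoding RNAs 44 lower and 5 higher.

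By chromosome, protein-coding genes of chromosome 7 had 28 of 496 (5.65%) higher and 6 (1.21%) lower. Their median log2 fold change was 0.04, with 309 positive values, and their median deviation was 0.05, 0.06 and 0.03 in the 3 dCas9 libraries. Chromosome 15, which holds B2M, had 4 of 337 (1.19%) higher and 12 (3.56%) lower, around a median of 0.00. Over all protein-coding genes, 269 of 10895 (2.47%) were higher and 286 (2.63%) lower. Against the same untreated libraries, TALE cells had 33 genes of chromosome 7 higher and 12 lower, around a median of 0.04. Of all protein-coding genes, 321 were higher and 373 lower in TALE cells.

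Genes that DESeq2 called and edgeR did not included NNMT and UTRN, lower genes outside the lists with groups that did not overlap. NNMT, a methyltransferase that uses nicotinamide, was at 20.6 CPM in untreated and 10.8 CPM in dCas9 cells (mean of 3 libraries). UTRN, the dystrophin relative utrophin, was at 35.3 and 19.3 CPM. Both had an adjusted p of 0.208 in edgeR.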
